A study of Arabidopsis thaliana with 24 samples.

Results

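The 6 wild-type libraries of the 2019 batches were compared with each other, as 3 libraries of batches 7 to 9 (WT_7, WT_8 and WT_9) against 3 libraries of batches 4 to 6 (WT_4, WT_5 and WT_6), out of 24 libraries in the whole series. They were chosen by their column names alone, and no measured value entered the choice. All 6 came from whole Arabidopsis thaliana seedlings of the Col0 accession, genotype WT, grown on plates to an age of 14 days, with no altered gene and no labelled treatment. The study set these seedlings against lines with altered amounts of DNE1, an endonuclease of messenger RNA decay: D153N, an overexpressor of the DNE1_D153N form under the 35S promoter, shared batches 7 to 9 with WT_7, WT_8 and WT_9, and vcs6, a mutant of the decapping scaffold VARICOSE, shared batches 4 to 6 with WT_4, WT_5 and WT_6. RNA was extracted with TRIZOL, libraries were made with a kit that selects messenger RNA, and each value here is the number of reads per gene divided by a size factor of the library (a normalised read count). Each batch held 1 wild-type library, so the batch, the seedlings and the library cannot be told apart, and the difference between the sets cannot be told apart from that between the batches. The design names the triplicates biological, and the labels do not say how the seedlings of the 6 libraries were kept apart, so the p-values measure the spread between these libraries.

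Several groups of plant genes are known to respond within minutes or hours to the surroundings of a seedling. A circadian clock cycles the messenger RNA of its morning and evening genes through the day, so that their levels follow the hour at which tissue is frozen. Touch, wounding and cold induce a burst of transcription factor messages of the WRKY, ERF, ZAT and CBF families, and shortage of oxygen, sugar or iron each induces a known set of enzymes and transporters.

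The 6 libraries held between 35538094 and 53908600 reads, and 20955 of the 27122 genes listed for 2019 passed the filter on low values. Genes that the lines alter had like levels in both sets: DNE1 had 802, 803 and 854 in WT_7, WT_8 and WT_9, against 908, 903 and 860 in WT_4, WT_5 and WT_6, and VCS had 4658, 5089 and 5250 against 5745, 4604 and 5497. DNE1 was slightly lower in every library of batches 7 to 9, as were 10.3% of all genes tested, with a log2 difference of -0.12. The leaf gene RBCS1A, the small subunit of Rubisco, had 583300 to 642400 in WT of batches 7 to 9 and 625100 to 796500 in WT of batches 4 to 6 and was the most abundant of the photosynthesis genes, and root marker genes were read in all 6 libraries. Of 15 root genes tested, none was called by limma, the main test below, and 3 had an unadjusted p under 0.05 (13.8% of all genes). DESeq2, an alternative test, called 1 higher (1.60% of all genes) and none without WT_5 (0.969%). Of the 15, 2 were above WT of batches 4 to 6 in every library of batches 7 to 9 (9.76% of all genes tested were). The summed level of the 15 was 43840 to 62950 against 49640 to 62100. Reads from genes encoded in the chloroplast were 0.111 to 0.142% in WT of batches 7 to 9 and 0.134 to 0.164% in WT of batches 4 to 6. Library WT_5 stood apart from the other 5 on the main axis of variation: its score on a principal component that held 54.4% of the variance was 57.4, and those of the other 5 ran from -28.2 to 0.40. Results that rest on WT_5 are given with and without it.

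A single gene passed the test between the sets. By limma on log2(normalised count + 1), with Benjamini-Hochberg adjustment over all 20955 genes and a threshold of 0.05, 1 gene (0.00477%) was called, AT3G01345, which the annotation names only as an uncharacterized protein. It lies on chromosome 3 at 129138 to 130749 on the plus strand (build TAIR10.1). Because it carries the only called difference, the 143 bases between its annotated start and the gene before it are shown, from the RefSeq genome at chr3:128995-129137, plus strand. No letters are in capitals, since none of the 4 motifs searched below is in this window.
AT3G01345: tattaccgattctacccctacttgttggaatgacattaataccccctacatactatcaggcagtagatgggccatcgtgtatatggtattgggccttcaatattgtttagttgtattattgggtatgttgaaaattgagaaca
AT3G01345 had 622, 894 and 661 normalised reads in WT_7, WT_8 and WT_9, against 41.05, 33.4 and 25.9 in WT_4, WT_5 and WT_6. The sets did not overlap, and the lowest library of batches 7 to 9 lay far above the highest of batches 4 to 6. The difference was 4.40 ± 0.22 on the log2 scale (SE, n = 3 each), with an adjusted p of 0.0034 by limma, and over the alternatives tried the adjusted p ran from 3.23e-63 to 0.045.

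The high level of AT3G01345 was not limited to wild type. D153N seedlings of batches 7 to 9 had 595, 560 and 407, and vcs6 seedlings of batches 4 to 6, whose columns carry no replicate number, had 473, 455 and 510. The low level was thus found in 3 of the 12 libraries of 2019 used here, all of them WT of batches 4 to 6. As rpm, reads scaled to equal library totals so that the 2018 wild type can be set beside them, the gene had 16.3, 21.3 and 16.5 in WT_7, WT_8 and WT_9, 0.962, 0.849 and 0.619 in WT_4, WT_5 and WT_6, and 2.91, 1.15 and 1.31 in the 3 wild-type libraries of 2018. The 2018 libraries lay near WT of batches 4 to 6 and below every library of batches 7 to 9.

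The genes around AT3G01345 did not share the difference. AT3G01340, which encodes a WD40-repeat protein and starts on the other strand at the far end of the sequence shown, had 1143, 1172 and 1144 in WT of batches 7 to 9 and 1185, 1003 and 1130 in WT of batches 4 to 6. On the other side, AT3G01350, a member of the major facilitator superfamily of transporters, had 154, 184 and 114 against 194.5, 239.5 and 212. That gene lay lower in every library of batches 7 to 9, the opposite direction to AT3G01345. DEL3, a DP-E2F-like protein, had 122, 117 and 133 against 119, 201 and 133, with overlapping sets. AT3G01345 shares 0.32% of its words of 31 bases with transcripts of other annotated genes, so few of its reads can belong to those. Copies outside annotated genes were not searched for.

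**Figure D1:**
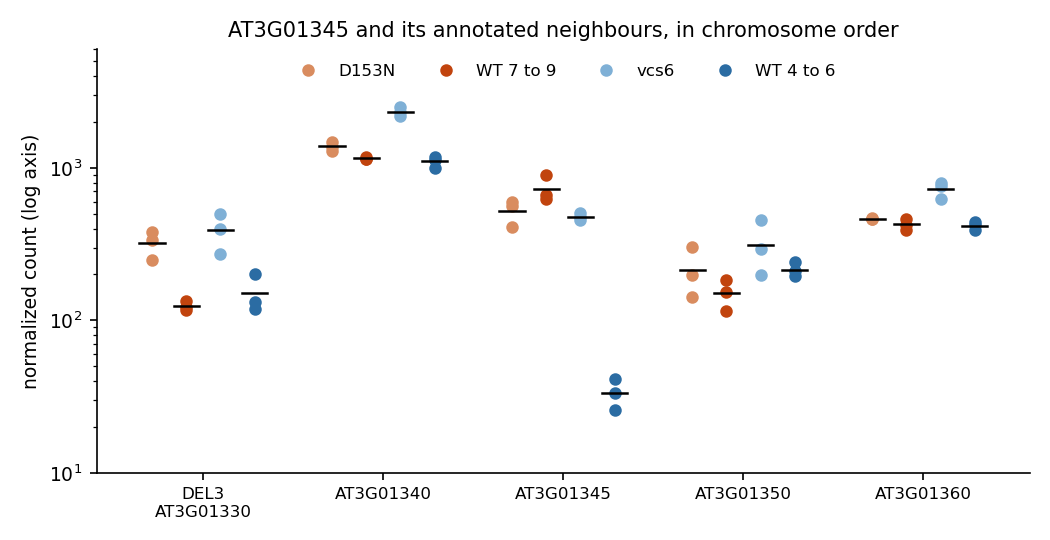
Normalised count, on a log axis, of AT3G01345 and the genes beside it on chromosome 3, in D153N and WT of batches 7 to 9 and in vcs6 and WT of batches 4 to 6; each point is 1 library and each bar a mean. For AT3G01345, WT of batches 4 to 6 lies at 25.9 to 41.05 and the other 3 groups lie at 407 to 894.

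Beyond that gene the sets differed in many small ways that limma did not call. Without adjustment, 2891 genes (13.8%) had a p under 0.05. In 2045 genes (9.76%) every library of batches 7 to 9 was above every library of batches 4 to 6, and in 2150 genes (10.3%) every one was below. On the reads recovered from the table, edgeR's quasi-likelihood test called 1 gene and DESeq2 called 336 higher (1.60%) and 188 lower (0.897%). Without WT_5, DESeq2 called 202 higher (0.969%) and 46 lower (0.221%), limma called 1 (0.00480%) and edgeR 1. A count from DESeq2 is therefore named as such below, and no gene other than AT3G01345 is called by limma.

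The genes with the smallest p after AT3G01345, chosen after their values were seen, were not called by limma, and some of those that were higher in WT of batches 7 to 9 are given here. MIOX2, a myo-inositol oxygenase that feeds sugar precursors to the cell wall, had 2272, 1298 and 1990 in WT_7, WT_8 and WT_9, against 408, 420 and 557 in WT_4, WT_5 and WT_6. The sets lay well apart, and the log2 difference was 1.98 ± 0.22 (SE, n = 3 each), with an adjusted p of 0.147 by limma and 2.92e-13 by DESeq2. UGT85A1, a UDP-glycosyltransferase, had 719, 519 and 661 against 216, 120 and 214, and SLAH3, an anion channel that passes nitrate, had 3280, 3089 and 4393 against 1719, 1354 and 1481. Both were higher in all 3 libraries of batches 7 to 9, with log2 differences of 1.82 ± 0.25 and 1.23 ± 0.16 (SE), adjusted p 0.176 each by limma, and adjusted p of 6.79e-09 and 9.44e-09 by DESeq2. EXL4, an EXORDIUM-like protein, was tight within each set, at 1774, 1500 and 1575 against 900.3, 877 and 830. CYP81D11, a cytochrome P450, had 3083, 2476 and 2438 against 1263, 1119 and 1316, and overlaps AT3G28730 on the opposite strand, so its reads are uncertain.

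Genes lower in WT of batches 7 to 9, likewise chosen after their values were seen, are given next. ACD6, an ankyrin-repeat membrane protein that promotes salicylic acid defence, had 1472, 2240 and 1898 in WT_7, WT_8 and WT_9, against 4392, 4864 and 7726 in WT_4, WT_5 and WT_6. The log2 difference was -1.57 ± 0.24 (SE, n = 3 each), with an adjusted p of 0.188 by limma and 2.14e-07 by DESeq2. RLK1, a receptor-like kinase, had 45.4, 64.6 and 53.5 against 135, 231 and 236, a log2 difference of -1.83 ± 0.26. PORA, a light-sensitive enzyme of chlorophyll synthesis, had 154, 258 and 145 against 447, 355 and 541. In none of these genes did the sets overlap. AT2G41090, a calcium-binding protein that overlaps a gene on the other strand, had 1640, 2099 and 1839 against 3387, 3615 and 3866.

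Genes of the low-oxygen response were all higher in WT of batches 7 to 9. Like every list here, the list of these genes was chosen with earlier results of these data known, so its shares were not tested. Of the 10 genes of this list, 10 were higher in every library of batches 7 to 9 than in any of batches 4 to 6, where 9.76% of all genes tested were. None was called by limma, and 10 had an unadjusted p under 0.05 (13.8% of all). DESeq2 called 4 higher (1.60%), or 3 without WT_5 (0.969%). PCO1 and PCO2, plant cysteine oxidases that mark ERF factors for degradation while oxygen is present, differed most. PCO2 had 295, 384 and 287 in WT_7, WT_8 and WT_9, against 85.0, 133 and 140 in WT_4, WT_5 and WT_6, and PCO1 had 269, 341 and 282 against 84.1, 109 and 160. WT_8 was the highest library and WT_4 the lowest in both genes. The log2 difference of PCO2 was 1.45 ± 0.22 (SE, n = 3 each; adjusted p 0.188 by limma, 3.51e-06 by DESeq2), and that of PCO1 was 1.37 ± 0.24 (0.242 by limma, 9.19e-05 by DESeq2).

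The fermentation enzymes and sucrose synthases of the low-oxygen list had the same order. SUS4, a sucrose synthase, had 643, 1017 and 674 in WT of batches 7 to 9 and 255, 436 and 440 in WT of batches 4 to 6. ADH1, the alcohol dehydrogenase of fermentation, had 660.1, 798 and 667 against 309, 455 and 541, and PDC1, pyruvate decarboxylase, had 387, 460 and 280.1 against 115, 207 and 272, so that WT_9 lay only slightly above WT_6. LBD41, a transcription factor, and HB1, a haemoglobin, differed by 0.90 ± 0.24 and 1.01 ± 0.32 on the log2 scale (SE). The smallest difference of the 10 was that of SUS1, the other sucrose synthase, at 0.30 ± 0.09. The median difference of the list was 0.94, or 0.92 without WT_5, beside -0.01 over all genes tested. ADH1 overlaps a gene on the other strand. In whole seedlings, fewer cells of a type and less RNA per cell cannot be told apart, here and in the results that follow.

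Genes of the list for sugar shortage and darkness were mostly higher in WT of batches 7 to 9 as well. Of 8 genes tested, 7 had a higher mean and 4 were higher without overlap (9.76% of all genes). The 7 include GPT2, a glucose-6-phosphate translocator that is not a marker of sugar shortage. It had 65.6, 210 and 30.5 in WT_7, WT_8 and WT_9, against 21.5, 152 and 52.9 in WT_4, WT_5 and WT_6, with overlapping sets. None of the 8 was called by limma, and 4 had an unadjusted p under 0.05 (13.8% of all genes). DESeq2 called 1 higher (1.60% of all), or 2 without WT_5 (0.969%). ASN1, the asparagine synthetase that stores nitrogen in the dark, had 14850, 13360 and 13910 in WT_7, WT_8 and WT_9, against 7963, 3307 and 4455 in WT_4, WT_5 and WT_6. DIN10, a dark-inducible raffinose synthase-like enzyme, had 41040, 31580 and 48740 against 21030, 4669 and 14890. Levels in batches 7 to 9 were close to each other in ASN1, and WT_5 was the lowest of the 6 libraries in both genes and in 6 of the 8 genes of the list, where it was the lowest in 23.0% of all genes tested. The log2 difference was 1.52 ± 0.29 for ASN1 (adjusted p 0.242 by limma, 0.000259 by DESeq2) and 1.81 ± 0.52 for DIN10 (0.262 by limma, 0.0864 by DESeq2 and 0.000188 by DESeq2 without WT_5). The list's median was 0.77, or 0.79 without WT_5. Both genes overlap a gene on the other strand.

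Messages of the switch to flowering were at low levels and mostly higher in WT of batches 7 to 9. Of 13 genes tested, 11 had a higher mean, 6 were higher without overlap (9.76% of all genes) and 1 (SPL9) lower (10.3%), none was called by limma, 6 had an unadjusted p under 0.05 (13.8%), and DESeq2 called 3 higher, none of them without WT_5. FT, the mobile florigen made in leaves, had 65.6, 48.2 and 38.6 in WT_7, WT_8 and WT_9, against 24.4, 17.3 and 17.63 in WT_4, WT_5 and WT_6. SEP3, a MADS-box factor of the floral meristem that acts downstream of FT, had 98.9, 141 and 104 against 64.5, 55.0 and 49.4. SPL5, a factor of the age pathway, had 250.3, 143 and 277 against 96.8, 61.5 and 129, and overlaps AT3G15260. Each of these 3 genes was higher in all 3 libraries of batches 7 to 9. Differences were 1.30 ± 0.28 for FT, 1.00 ± 0.20 for SEP3 and 1.22 ± 0.34 for SPL5 on the log2 scale (SE, adjusted p 0.242 to 0.257 by limma). The floral repressor FLC had 55.5, 93.5 and 51.3 against 45.0, 58.3 and 83.5, with overlapping sets, and the flower identity genes AP1 and AP3 had at most 31.3 in any library. The list's median was 0.87, or 0.68 without WT_5.

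Flavonoid genes of the late, anthocyanin branch were lower in WT of batches 7 to 9. Of 14 genes tested, 10 had a lower mean and 3 (TT8, LDOX and DFR) did not overlap, where 10.3% of all genes were lower without overlap, none was called by limma, 7 had an unadjusted p under 0.05 (13.8%), and DESeq2 called 2, or 1 without WT_5. DFR, dihydroflavonol reductase, had 110.0, 216 and 55.7 in WT_7, WT_8 and WT_9, against 264, 795 and 406 in WT_4, WT_5 and WT_6. LDOX, the anthocyanidin synthase, had 46.4, 73.2 and 28.2 against 127, 319 and 161, and TT8, a bHLH regulator of both, had 6.06, 13.5 and 2.23 against 19.6, 45.3 and 28.2. In all 3 genes WT_9 was the lowest library and WT_5 the highest. The log2 difference was -2.0 ± 0.44 for LDOX (SE, adjusted p 0.251 by limma, 0.00089 by DESeq2) and -1.99 ± 0.56 for DFR (0.257 by limma). CHS, the enzyme that opens the pathway, had 2906, 2427 and 2550 against 1598, 2841 and 2636, so the sets overlapped there and the difference was 0.20. MYBL2, a repressor of this branch and the most abundant gene of the list, had 3240, 7431 and 4410 against 11130, 6890 and 7962.

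Regulators of salicylic acid defence had the direction of ACD6. Of 17 genes tested, 13 had a lower mean in WT of batches 7 to 9 and 6 were lower without overlap (10.3% of all genes), none was called by limma, 5 had an unadjusted p under 0.05 (13.8%), and DESeq2 called 1, or 0 without WT_5. WRKY70, a defence factor, had 2885, 7234 and 6750 in WT_7, WT_8 and WT_9, against 9836, 12400 and 11080 in WT_4, WT_5 and WT_6. CBP60G, a factor that switches on salicylic acid synthesis, had 139, 409 and 412 against 564, 1247 and 549. WT_7 was the lowest and WT_5 the highest library in both genes. PR1, the classical marker of an active response, had between 0 and 1.01 in all 6 libraries.

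Genes of DNA replication were lower in WT of batches 7 to 9 by small and even amounts. Of 18 cell cycle and meristem genes tested, 14 had a lower mean and 9 were lower without overlap (10.3% of all genes), none was called by limma, 9 had an unadjusted p under 0.05 (13.8%), and DESeq2 called 5 lower (0.897%), or 1 (MCM3) without WT_5. The MCM proteins form the ring that opens DNA at replication origins, and plant E2F factors are known to switch on several of their genes. The promoters of MCM3 and MCM6, the members whose differences had the smallest p, are shown with the E2F motif in capitals (TTTCCCGC, TTTGGCGC, TTTGGCGG or TTTCCCGG, either strand, as counted below), from the RefSeq TAIR10.1 genome at chr5:18773707-18773956 and chr5:18010668-18010917, both on the minus strand.
MCM3: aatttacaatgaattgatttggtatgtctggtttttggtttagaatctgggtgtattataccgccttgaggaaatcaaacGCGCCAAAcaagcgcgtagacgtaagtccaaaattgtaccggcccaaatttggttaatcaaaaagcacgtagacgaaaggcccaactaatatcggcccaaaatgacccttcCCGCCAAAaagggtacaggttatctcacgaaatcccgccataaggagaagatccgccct
MCM6: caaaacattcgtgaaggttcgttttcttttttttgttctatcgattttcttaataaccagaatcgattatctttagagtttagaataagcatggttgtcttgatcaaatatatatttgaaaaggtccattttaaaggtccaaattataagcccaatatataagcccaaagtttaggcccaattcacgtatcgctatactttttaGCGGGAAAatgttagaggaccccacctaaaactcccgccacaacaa
An E2F motif of these letters was in 4 of the 20 promoters of the list (20%; MCM2, MCM3, MCM5 and MCM6) and in 1.98% of the promoters of 24397 protein-coding genes. A match of letters is not a tested site.

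MCM3 had 557, 641 and 574 in WT_7, WT_8 and WT_9, against 874, 856 and 818 in WT_4, WT_5 and WT_6. MCM6 had 201, 227 and 213 against 333, 366 and 306. The libraries of each set lay close together in both genes, and the log2 difference was -0.53 ± 0.09 for MCM3 (SE, n = 3 each; adjusted p 0.242 by limma, 0.00238 by DESeq2) and -0.65 ± 0.12 for MCM6 (0.242 by limma, 0.00455 by DESeq2). MCM2, MCM5, MCM7, PCNA1 and PCNA2, which encode further parts of the replication machinery, differed by -0.38 to -0.43 with no overlap of the sets, though MCM7 and PCNA2 each overlap a gene on the other strand. CYCD3;1, a cyclin of the entry into the cycle, had 2011, 2374 and 2026 against 2034, 2072 and 2495. The mitotic kinase gene AUR1 had 437, 394 and 418 against 364, 445 and 413, and the mitotic cyclin gene CYCB1;1 had 175, 162 and 155 against 141, 187 and 199, with overlapping sets in both. SPCH, which starts the stomatal lineage in dividing leaf cells, had 123, 133 and 99.6 against 158, 203 and 235, a log2 difference of -0.73 ± 0.19 (adjusted p 0.252 by limma). Of the 8 stomatal genes tested, 6 had a lower mean and 1 (SPCH) did not overlap, beside 10.3% of all genes, and the median was -0.18.

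Clock genes varied from library to library in a pattern that crossed the sets. Morning genes and evening genes are known to repress each other, and morning factors bind a motif named the evening element. The promoters of LUX and TOC1, evening genes, are shown with this element in capitals (AAAATATCT, either strand), from the RefSeq TAIR10.1 genome at chr3:17182792-17183041 and chr5:24674713-24674962, both on the plus strand.
LUX: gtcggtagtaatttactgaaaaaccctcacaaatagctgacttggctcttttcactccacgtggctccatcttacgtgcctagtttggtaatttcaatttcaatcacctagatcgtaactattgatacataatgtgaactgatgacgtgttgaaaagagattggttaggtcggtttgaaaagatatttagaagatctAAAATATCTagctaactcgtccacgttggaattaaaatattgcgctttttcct
TOC1: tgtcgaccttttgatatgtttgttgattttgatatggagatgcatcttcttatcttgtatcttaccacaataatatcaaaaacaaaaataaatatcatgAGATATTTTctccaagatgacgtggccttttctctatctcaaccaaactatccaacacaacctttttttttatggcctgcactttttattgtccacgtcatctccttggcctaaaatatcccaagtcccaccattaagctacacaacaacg
The element was in 6 of 11 evening promoters (54.5%), 0 of 9 morning promoters and 2.42% of all promoters. The G-box (CACGTG, the same on both strands) was in 5 of 9 morning promoters (55.6%), 2 of 11 evening promoters and 6.98% of all.

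All 9 morning genes had a lower mean in WT of batches 7 to 9, with a median difference of -0.98 (-0.88 without WT_5), but 1 of the 9 was lower without overlap, near the 10.3% of all genes, 2 had an unadjusted p under 0.05 (13.8% of all), and none was called by limma or DESeq2. CCA1, a MYB factor at the core of the clock, had 257, 988 and 223 in WT_7, WT_8 and WT_9, against 1063, 849 and 449 in WT_4, WT_5 and WT_6. WT_8 thus lay with WT_4 and WT_5, and WT_7 and WT_9 lay below the other 4. LNK1, a coactivator of the morning loop, had 990.2, 2096 and 1474 against 2661, 2374 and 2221, and PRR9, a morning repressor, had 5.05, 56.9 and 14.9 against 133, 119 and 37.6, with 32.5% of its words of 31 bases shared with other genes. WT_4 was the highest library in 9 of the 9 morning genes, and WT_7 was the lowest in 7 and WT_9 in 2.

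Evening genes ran the other way between libraries. LUX, part of the evening complex, had 1232, 811 and 1555 in WT_7, WT_8 and WT_9, against 532, 524 and 829 in WT_4, WT_5 and WT_6. TOC1, a repressor of morning genes, had 4198, 2909 and 5287 against 2346, 3285 and 4171, and GRP7, an RNA-binding protein of a clock output loop, had 34500, 21430 and 36940 against 15760, 19300 and 31220. WT_9 was the highest library in 6 of the 11 evening genes and WT_4 the lowest in 6. LUX differed between the sets by 0.92 ± 0.27 on the log2 scale (SE, adjusted p 0.268 by limma and 0.0344 by DESeq2) and overlaps AT3G46650 on the other strand, and TOC1 differed by 0.34 ± 0.27 with overlapping sets. Of the 11 evening genes, 8 had a higher mean in WT of batches 7 to 9, 1 without overlap (9.76% of all genes), 2 had an unadjusted p under 0.05 (13.8%) and none was called by limma. GI, a further gene of the evening list, had 5341, 5531 and 6270 against 6204, 6325 and 6630. The labels give no hour of harvest, and its part in these values was not tested.

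**Figure D2:**
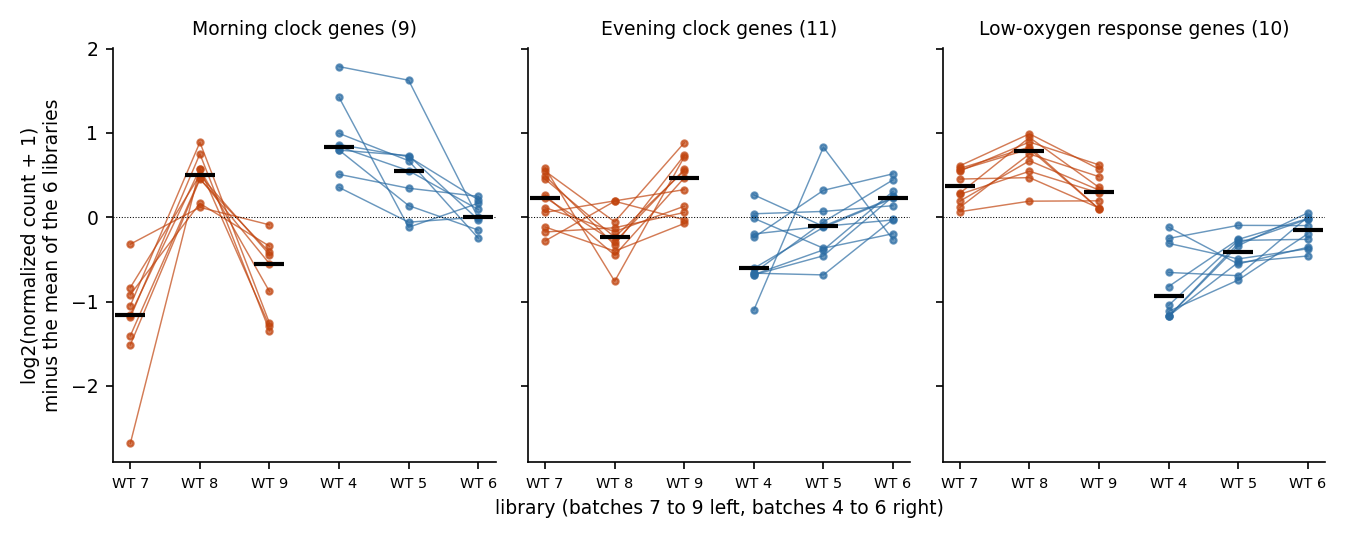
Deviation of each gene from its mean over the 6 wild-type libraries, in log2 units, for clock genes and low-oxygen genes; each line joins the values of 1 gene, black bars are medians, and the libraries have no order. Low-oxygen genes are higher in all 3 libraries of batches 7 to 9, and morning genes are highest in WT_4 and lowest in WT_7 or WT_9.

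Libraries of the same set also differed from each other. Among 16618 genes with a mean of at least 100, the range within a set reached 2 log2 units (4-fold) in 69 genes (0.415%) for WT of batches 7 to 9 and in 261 genes (1.57%) for WT of batches 4 to 6, with 29 genes in both. That mean was taken over the libraries of both sets, so a gene high in a single library could pass through that library alone. WT_5 accounted for most of the second number: it was the library farthest from the other two in 239 of the 261 genes, above them in 214 (1.29%) and below in 25, and 16 genes had such a range between WT_4 and WT_6. In batches 7 to 9 the number was 29 without WT_7, 30 without WT_8 and 38 without WT_9, and the library farthest from the others was WT_7 in 20 genes, WT_8 in 30 and WT_9 in 19. The median SD of a gene was 0.122 log2 units in batches 7 to 9 and 0.150 in batches 4 to 6, or 0.121 over WT_4 and WT_6 only. Any pair of libraries with WT_5 in it had 220 to 340 genes at least 4-fold apart, and any other pair had 16 to 66. The pairs with WT_5 had 220 and 222 within its set and 251 to 340 between the sets, and the other pairs had 16 to 39 within a set and 16 to 66 between the sets.

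Genes of touch, wounding and early cold were mostly highest in WT_5, and 17 of them were among the 214 genes with a 4-fold range and WT_5 above. Some of the 17, CBF1 among them, reached the mean of at least 100 only through WT_5. The touch list, too, was chosen with earlier results of these data known. Of its 21 genes, WT_5 was the highest of the 6 libraries in 19, where it was the highest in 21.6% of all genes tested. WT_5 lay at least 4-fold above the highest of the other 5 in 16. CBF1, CBF2 and CBF3 encode the factors that start cold acclimation, TCH2 is a calmodulin-like gene first found through its response to touch, and CGCGTT is known as a rapid stress response element. The promoters of TCH2 and CBF2 are shown with CGCGTT (either strand; overlapping matches merge, which gives the runs of 8 capitals) in capitals, from the RefSeq TAIR10.1 genome at chr5:14999620-14999869 and chr4:13016236-13016485, both on the minus strand.
TCH2: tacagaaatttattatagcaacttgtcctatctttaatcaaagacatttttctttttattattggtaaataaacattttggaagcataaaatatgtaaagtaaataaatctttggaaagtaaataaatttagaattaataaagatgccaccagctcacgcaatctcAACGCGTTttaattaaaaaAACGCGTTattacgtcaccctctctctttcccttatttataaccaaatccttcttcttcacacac
CBF2: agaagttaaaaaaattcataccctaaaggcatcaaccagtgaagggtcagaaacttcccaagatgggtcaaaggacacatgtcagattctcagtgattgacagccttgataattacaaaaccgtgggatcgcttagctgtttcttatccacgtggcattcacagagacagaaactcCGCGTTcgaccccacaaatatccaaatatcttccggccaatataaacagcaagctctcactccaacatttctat
These were the only promoters of the list with the element (2 of 21, 9.52%), which was in 2.73% of all promoters, and none of the other 19 windows holds these letters.

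CBF1 had 7.07, 13.5 and 15.6 in WT_7, WT_8 and WT_9, against 23.5, 1699 and 36.4 in WT_4, WT_5 and WT_6. WT_5 was 46.6-fold above the next library. CBF2 had 9.08, 39.5 and 42.4 against 69.4, 1524 and 27.03, so that WT_5 was 22-fold above the next. ERF109, an ethylene response factor of wounding, had 196, 29.9 and 248 against 119, 8313 and 52.9, and overlaps 2 genes on the other strand. ZAT12, a zinc finger factor of oxidative stress, had 20.2, 45.3 and 55.0 against 57.7, 1503 and 41.1. In each of these genes the 5 libraries other than WT_5 stayed below 250.

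Genes with a higher base level had the same pattern. ZAT10, a zinc finger repressor, had 331, 908 and 725 in WT_7, WT_8 and WT_9, against 1459, 22900 and 1005 in WT_4, WT_5 and WT_6, and WRKY40, a repressor of defence genes that overlaps AT1G80850, had 234, 453 and 1257 against 574, 17870 and 383. In both genes WT_5 stood alone at the top, 15.7-fold and 14.2-fold above the next library, and WT_7 was the lowest. WRKY33, SZF1 and ERF6 were 6.12-fold, 4.67-fold and 5.09-fold above the next. TCH2 itself had 417, 628 and 703 against 532, 2298 and 402. TCH4, a cell wall enzyme induced by touch, was an exception, at 13950, 20730 and 29720 against 16750, 18140 and 11450, and so were MYB44 and, nearly, TCH3, in which WT_5 was 1.01-fold the level of WT_9. WT_7 was at the other end: the list's median deviation from the mean of the 6 libraries was -1.59 log2 units in WT_7, -0.29 in WT_8, -0.14 in WT_9, -0.38 in WT_4, 2.99 in WT_5 and -0.55 in WT_6.

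**Figure D3:**
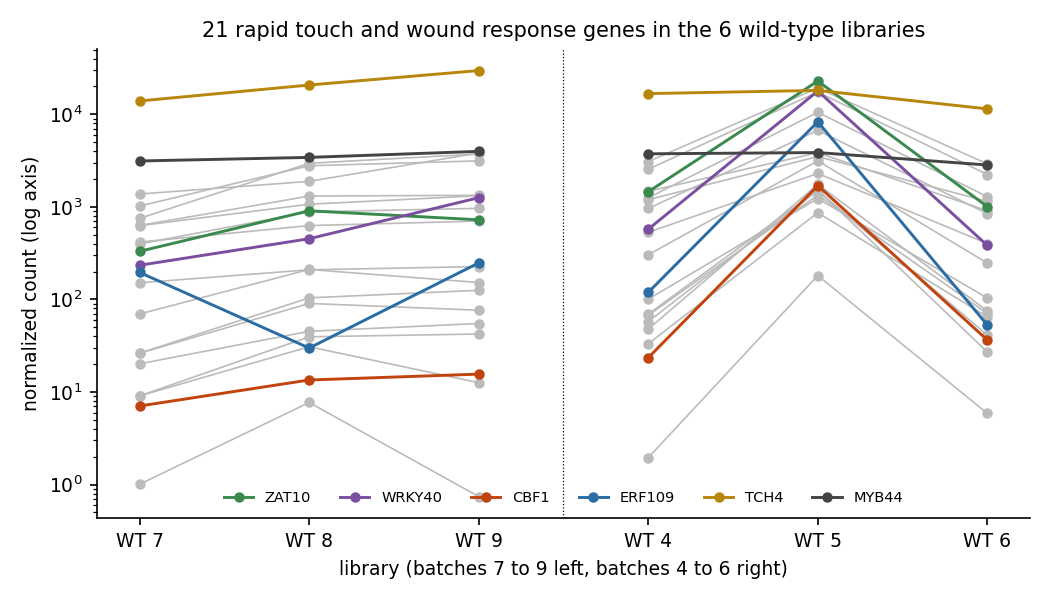
Normalised count, on a log axis, of the genes of touch, wounding and early cold in each of the 6 wild-type libraries; each line joins the values of 1 gene, and the libraries have no order. WT_5 is the highest library in 19 of 21 genes.

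The high levels of touch genes in WT_5 shaped the comparison between the sets without passing its test. The touch list had a median difference of -1.41, and -0.16 by limma without WT_5. DESeq2 and edgeR without WT_5 gave the opposite sign, 0.07 each. None of its 20 tested genes was called by limma, and 2 had an unadjusted p under 0.05 (13.8% of all genes). Of the 20, 5 were lower in WT of batches 7 to 9 without overlap (10.3% of all genes). DESeq2 gave no adjusted p to many of the genes that were extreme in WT_5, among them CBF1, CBF2, ERF109, ZAT10, ZAT12 and WRKY40, so that these could not be called by it. Genes beyond the list, with the largest spread in WT of batches 4 to 6, had the same shape: PUB19, a U-box ubiquitin ligase, had 25.2, 54.0 and 16.4 in WT_7, WT_8 and WT_9, against 60.6, 2187 and 36.4 in WT_4, WT_5 and WT_6, and AT4G27657, an uncharacterized protein, had 52.5, 121 and 150.1 against 305.0, 7420 and 125. RTFL12, a small ROTUNDIFOLIA-like protein, had 18.17, 25.1 and 69.1 against 97.8, 4022 and 37.6. DDF1, a factor of the CBF group, had at most 14.1 in the other 5 libraries and 840.4 in WT_5, and AT1G19210, a further ERF/AP2 protein, had at most 3.03 and 1508. MYB15, a factor of cold and defence, had 38.4, 64.6 and 17.1 against 37.1, 1380 and 15.3. Among families chosen after values were seen, 12 of 47 ERF/AP2 genes (25.5%) and 6 of 43 WRKY genes (14%) were in the 214 genes with WT_5 above, beside 1.29% of all. The filter, a mean of at least 100, took in WT_5, so some genes, such as DDF1 and AT1G19210, passed it only through that library. These shares are thus in part set by the filter and were not tested.

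Jasmonate synthesis and signalling genes were high in WT_5 too, but not in it alone. LOX3, a lipoxygenase that starts jasmonate synthesis, had 2785, 1247 and 1679 in WT_7, WT_8 and WT_9, against 1458, 21230 and 1408 in WT_4, WT_5 and WT_6. JAZ1, a jasmonate-induced repressor, had 1681, 1174 and 1325 against 2204, 13250 and 1871, and MYC2, the factor it represses, had 2248, 750 and 2402 against 2431, 12020 and 1741. WT_5 was far above the other 5 in these 3 genes. Between the sets, the median difference of the 17 jasmonate genes tested was -0.24, and 0.20 by limma without WT_5. Of 15 jasmonate genes with a mean of at least 100, 5 had a 4-fold range within batches 4 to 6 (1.57% of all genes). WT_5 was above in each of these 5, and 4 of the 15 had such a range within batches 7 to 9 (0.415% of all genes). There the low library was often WT_8: JAZ7 had 2904, 351 and 2671 against 2037, 2319 and 1368, and OPR3, an enzyme of jasmonate synthesis, had 7189, 1473 and 3954 against 2396, 6204 and 2291. Also highest in WT_5 were DREB2A, a drought factor, at 192, 200.4 and 204 against 180, 2288 and 212, and NCED3, the enzyme that starts stress-induced abscisic acid synthesis, at 322, 797 and 705 against 835, 3708 and 677.

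Within batches 7 to 9, WT_9 was low in genes of iron uptake. Roots short of iron are known to raise IRT1, the iron transporter, FRO2, the ferric reductase, and the bHLH factors that control them. IRT1 had 4041, 3120 and 697 in WT_7, WT_8 and WT_9, against 1684, 3558 and 4599 in WT_4, WT_5 and WT_6. FRO2 had 1650, 1331 and 351 against 765, 1372 and 1963, and BHLH38 had 237, 370 and 62.4 against 65.5, 166 and 245. WT_9 was the lowest of the 6 libraries in all 3 genes, with WT_4 next. Of the 18 iron genes, WT_9 was the lowest library in 14, where it was the lowest in 3124 of all 20955 genes tested. FIT, a bHLH regulator of iron uptake, was an exception, at 294, 201 and 191 against 155, 193 and 324, with WT_4 the lowest. Of 18 iron genes with a mean of at least 100, 6 had a 4-fold range within batches 7 to 9 (0.415% of all genes). Within batches 4 to 6 it was 1 (1.57% of all genes), and the list's median deviation in WT_9 was -1.11 log2 units. None of the 18 was called between the sets by limma or DESeq2, none was without overlap, and 1 had an unadjusted p under 0.05.

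Some genes were high in a pair of libraries of batches 7 to 9 and low in the other 4. AT4G22470, a lipid transfer family protein with a partner on the other strand, had 356, 1142 and 72.8 in WT_7, WT_8 and WT_9, against 23.5, 85.2 and 78.8 in WT_4, WT_5 and WT_6. NATA1, an acetyltransferase induced by jasmonate, had 1607, 2075 and 30.5 against 58.7, 104 and 90.5. BAM5, a beta-amylase, had 807, 840.3 and 52.0 against 29.3, 123 and 89.3, and SAG13, a senescence-associated reductase, had 193, 333 and 10.4 against 26.4, 7.55 and 21.2. WT_9 lay with the libraries of batches 4 to 6 in each of these genes. NATA1, BAM5 and SAG13 had an SE of 1.1 to 1.49 log2 units on differences of 2.24 to 2.51, with adjusted p of 0.417 to 0.491 by limma. NUDT24, a nudix hydrolase, had 152, 977 and 63.9 against 189.6, 890.0 and 670.0, so that WT_8 lay with WT_5 and WT_6. AT1G33760, an ERF/AP2 protein, had 8.08, 121 and 132 against 95.8, 226 and 41.1, with WT_7 alone at the bottom.

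**Figure D4:**
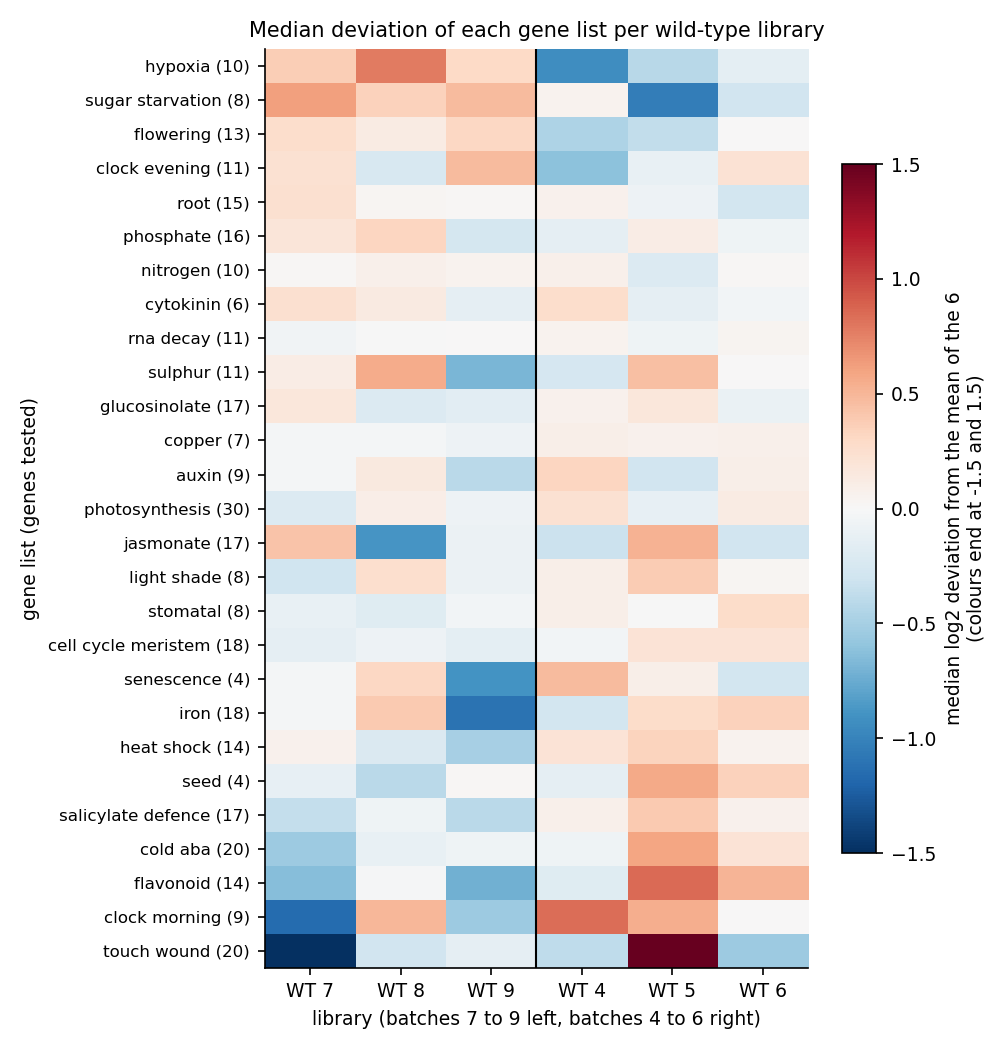
Median log2 deviation of each gene list from the mean of the 6 wild-type libraries, by library, with the number of genes tested in brackets; red is above and blue below the mean, and colours end at -1.5 and 1.5. The touch list in WT_5 has the deepest red (2.99, past the end of the scale), and the iron list in WT_9 is at -1.11.

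Further lists are given more briefly. Of 14 heat shock genes tested, 12 had a lower mean in WT of batches 7 to 9, 1 without overlap (10.3% of all genes). Their median was -0.45 (-0.26 without WT_5). Of 17 glucosinolate genes, 15 had a lower mean, 1 without overlap, with a median of -0.15 (-0.11 without WT_5). All 4 seed genes tested had a lower mean, none without overlap, with a median of -0.54 (-0.34 without WT_5). None of these genes was called by limma. Of 20 cold and abscisic acid genes, 16 had a lower mean in WT of batches 7 to 9, 6 without overlap (10.3% of all genes), with a median of -0.51 (-0.40 without WT_5), 0 called by limma, 8 with an unadjusted p under 0.05 (13.8%), and 2 called by DESeq2, none of them without WT_5. Of 30 photosynthesis genes, 28 had a lower mean, but the median was -0.14 (-0.24 without WT_5). None was without overlap (9.76% of all genes were higher and 10.3% lower), and none had an unadjusted p under 0.05 (13.8%). The light, sulphur and senescence lists had medians of -0.245, -0.08 and -0.35 (-0.17, 0.07 and -0.38 without WT_5). The medians of the phosphate, nitrogen, root and cytokinin lists lay between 0.11 and 0.18, and those of the copper, auxin and RNA decay lists between 0.00 and 0.02 in size. Without WT_5 the auxin median was -0.36, and those of copper and RNA decay were -0.03 and -0.05. Of 9 auxin genes tested, 2 were higher without overlap (9.76% of all genes) and 1 lower (10.3%). Of the same genes, 3 had an unadjusted p under 0.05 (13.8%), and none was called by limma or DESeq2. IPS1, a non-coding RNA of phosphate shortage, had 42.4, 14.5 and 11.9 in WT_7, WT_8 and WT_9, against 2.93, 2.16 and 5.88 in WT_4, WT_5 and WT_6. Its sets did not overlap, with an adjusted p of 0.252 by limma and 0.045 by DESeq2. The most abundant gene of each list, which the naming rule takes where no member is called, had overlapping sets in most lists. PIF4, a growth factor of light and shade responses, had 13330, 17860 and 14260 against 16520, 13040 and 15690, and SQD2, a sulfolipid enzyme of phosphate shortage, had 3956, 4044 and 3702 against 4228, 3804 and 3766. VSP2, a jasmonate-induced storage protein, had 69400, 63100 and 32710 against 48180, 72270 and 67090, with WT_9 the lowest library. Among these genes the sets were apart for ARR4, a response regulator of cytokinin, at 4182, 3800 and 3597 against 3052, 2031 and 3370, and for SULTR1;2, a sulphate transporter, at 5190, 4187 and 3230 against 5272, 5577 and 5528, besides WRKY70, DIN10 and SUS1 above.

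The number of genes called for D153N with each wild-type set depended on the fit. In a fit of the 12 libraries of 2019, limma called 3871 of 21805 genes (17.8%; 2135 higher and 1736 lower) for D153N against WT of batches 7 to 9, its own batches, and 5294 (24.3%; 2727 higher and 2567 lower) for D153N against WT of batches 4 to 6. With the batch as a replicate block, over the 6 libraries of batches 7 to 9, D153N had 2125 called genes, against 3365 in the same libraries without the block. In fits of only the 6 libraries compared, the numbers for both sets were close, 3365 against WT of batches 7 to 9 and 3689 against WT of batches 4 to 6. In the 12-library fit the number against WT of batches 7 to 9 was 2578 without WT_7, 2248 without WT_8, 1731 without WT_9, 1941 without D153N_14 and 2481 without D153N_15. Against WT of batches 4 to 6 it was 3299 without WT_4 and 3521 without D153N_14. For vcs6 the set mattered little to the number: 12105 genes (55.5%) were called against WT of batches 4 to 6, its own batches, and 12171 (55.8%) against WT of batches 7 to 9. Comparisons of 1 line with both sets share the line's libraries, so their values are given side by side.

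A line's value against 1 set minus its value against the other is the difference between the sets, so the pairs of values below follow from it. For AT3G01345 the difference of D153N was -0.48 ± 0.20 (SE, adjusted p 0.121) against WT of batches 7 to 9 and 3.92 (2.95e-06) against WT of batches 4 to 6. For vcs6 it was 3.82 (1.36e-07) against its own WT of batches 4 to 6 and -0.58 (0.0279) against WT of batches 7 to 9, a call in either direction. The called rise in vcs6 was thus against WT_4, WT_5 and WT_6 and was not found against WT_7, WT_8 and WT_9. As given above, the wild-type libraries of 2018 also lay near WT of batches 4 to 6 in rpm. PCO2 in D153N had -0.24 (adjusted p 0.445) against WT of batches 7 to 9 and 1.2 (0.00244) against WT of batches 4 to 6. RLK1 in vcs6 had 0.33 (0.338) against WT of batches 4 to 6 and 2.16 (6e-05) against WT of batches 7 to 9, and MIOX2 had 0.13 (0.851) and -1.85 (0.00833) in the same order. In other cases the line lay nearer to the other set: MIOX2 in D153N had -1.32 (0.0919) against WT of batches 7 to 9 and 0.66 (0.368) against WT of batches 4 to 6, SLAH3 in D153N had -1.08 (0.0696) and 0.15 (0.799), and PCO2 in vcs6 had 1.96 (1.16e-05) against WT of batches 4 to 6 and 0.51 (0.0512) against WT of batches 7 to 9.

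Other genes were called against the line's own wild type and lost the call against the other set. FT in vcs6 had 1.89 (adjusted p 0.00335) against WT of batches 4 to 6 and 0.59 (0.273) against WT of batches 7 to 9, and MCM6 had -0.96 (0.00375) and -0.32 (0.258). PCO1 in vcs6 changed sign with both values called, at 0.73 (0.0214) against WT of batches 4 to 6 and -0.64 (0.0384) against WT of batches 7 to 9. All values of the lines are log2 differences with limma's adjusted p. DNE1 in D153N, the check of the line, had 4.25 (2.1e-08) against WT of its own batches.

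**Figure D5:**
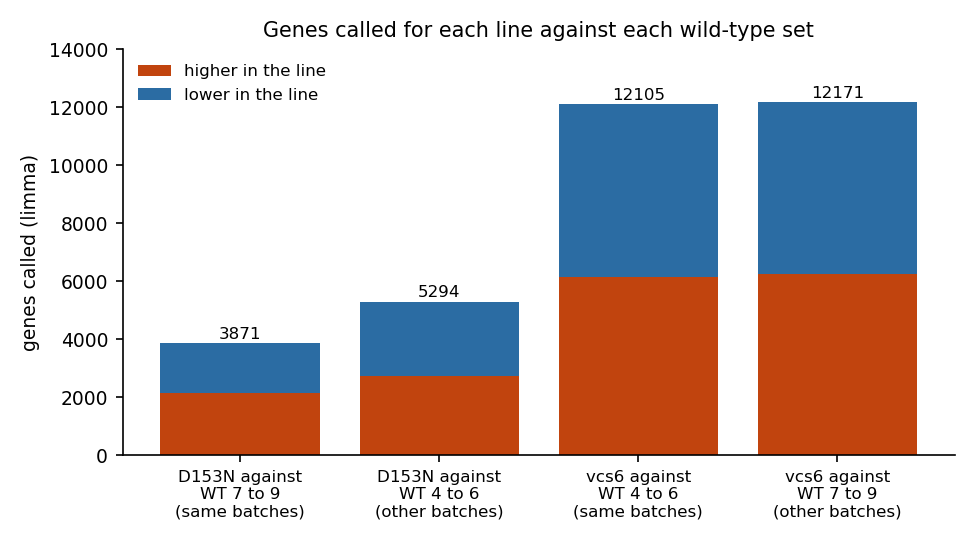
Number of genes called by limma at an adjusted p under 0.05 for each line against each wild-type set, split into genes higher and lower in the line. D153N has 3871 against WT of its own batches and 5294 against the other set, and vcs6 has 12105 and 12171.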

How the data were processed

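Per the submitters' processing notes, reads were demultiplexed with bcl2fastq 2.17.1.14, aligned to TAIR10 with HISAT2 2.1.0 and counted with HTSeq, and per the file header the deposited values are DESeq2 1.24.0 normalised counts, a signal of reads divided by a size factor set separately for 2018 and 2019. The annotation release and strand setting are not given in the sources used here. Whole reads were recovered for 100% of values (tolerance 1e-06). Of 24 value columns, 9 were not used.

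limma 3.58.1 (trend) in R 4.3.3 was fitted to log2(value + 1) for genes with at least 10 in at least 3 fitted libraries, two-sided; edgeR 4.0.16 and DESeq2 1.42.0 on the recovered reads were alternatives, with the pseudocount, the filter and leaving out each library. An adjusted p that DESeq2 gave as NA was not counted. The members and all 27 gene lists were chosen with earlier results of these data known. The naming rule took called genes, the most abundant gene of each list without a called member, the 10 widest spreads within each set, DNE1 and VCS; all other genes named were chosen after their values were seen. TCH2, CBF3, DREB2A, MYC2, BHLH38, AUR1, CHS, SPL3, LNK1 and FLC also overlap a gene on the other strand, and AT1G19210 one on the same strand, so their reads are uncertain. Coordinates and promoters (250 bases before the annotated start) are from RefSeq TAIR10.1.

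Batch labels pair D153N with WT of batches 7 to 9: deviations of libraries of 1 batch had correlations of 0.229, 0.071 and 0.136, and those of different batches had -0.328 to 0.169.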

Additional observations from a re-analysis of the deposited data

How the results depend on the processing

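The call of AT3G01345 and its direction held under every alternative tried. The number of genes called between the wild-type sets was 1 by limma, 524 by DESeq2, 248 by DESeq2 without WT_5, 2 in the fit of all 12 libraries, and 1 to 4 with 1 library left out (4 without WT_9, 2 without WT_6). D153N had 1731 to 3929 called genes against WT of batches 7 to 9 with 1 library left out (2578 without WT_7, 2248 without WT_8, 1941 without D153N_14, 2481 without D153N_15) and 2125 with the batch as a replicate block. It had 3299 to 4507 against WT of batches 4 to 6 with 1 library left out, lowest without WT_4, and 3521 without D153N_14. Genes with a 4-fold range numbered 29 in batches 7 to 9 and 132 in batches 4 to 6 at a mean of at least 500, and 29 to 73 and 16 to 266 with 1 library left out. No called value reversed. Of 87 values of single genes that passed the threshold under an alternative alone, 41 came from DESeq2 and 43 from DESeq2 without WT_5. The cause of these moves was not tested. No paired analysis of the wild-type sets was possible because they share no batch or replicate number. The vcs6 columns carry no such number either, so a batch block was fitted for D153N only. Each set has 3 libraries, and the set cannot be told apart from the batches.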
